A study of Mus musculus with 9 samples.

Results

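The genes that write, maintain and erase DNA methylation were followed in 9 RNA sequencing libraries of mouse LSK cells, a marrow fraction without lineage markers that is positive for Sca-1 and c-Kit. The set was chosen by gene symbol, with no threshold on measured values, and holds the maintenance enzyme gene Dnmt1 and its recruiter Uhrf1, the de novo enzyme genes Dnmt3a and Dnmt3b, and the dioxygenase genes Tet1, Tet2 and Tet3. All 7 were found among the 14461 genes of the table, and all 7 passed the filter on low values. The series asks how LSK cells that travelled through blood into the marrow of an irradiated partner differ in their transcripts, parabiosis being the surgical joining of mice so that they share blood. All cells were sorted from bone marrow of parabiotic mice kept free of specific pathogens. There were 3 libraries labelled circulating (strain label C57BL/6), 3 labelled irradiated (strain label C57BL/6) and 3 labelled endogenous (strain label B6SJL CD45.1). The strain label thus changes with the group in each comparison with endogenous cells, and the effects of group and strain cannot be told apart there. The label alone does not tell whether it names the cells or the mouse they were sorted from. A shared label therefore does not settle whether circulating and irradiated cells had the same strain of origin. The sources used here do not give the radiation dose, the age of the mice, the interval after joining or whether a group's libraries came from separate mice.

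Methylation of cytosine at CpG sites is copied after DNA replication by Dnmt1, which Uhrf1 brings to newly replicated, hemimethylated DNA. Dnmt3a and Dnmt3b add methyl groups at sites that carried none, and the Tet enzymes oxidise the methyl group, which leads to its removal. In mouse marrow, Dnmt1 and Uhrf1 are known to be needed for stem cell self-renewal, and loss of Dnmt3a or Tet2 is known to expand stem cells at the expense of differentiation.

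Values are the deposited normalised values, that is estimated read counts multiplied by 1 constant for each library. The lowest depth was 14065855 estimated counts (circulating replicate 2) and the highest 27012345 (irradiated replicate 2), and each member rested on 366 to 6335 estimated counts in a library. The libraries varied most between circulating replicates: the median standard deviation (SD) of a tested gene was 0.38 log2 units in circulating, 0.21 in irradiated and 0.26 in endogenous libraries. Transcripts of the gate genes Ly6a (Sca-1) and Kit (c-Kit) were present in every library, at levels that differed between groups. Kit averaged 379 ± 45.1 in circulating, 587 ± 31.3 in irradiated and 878 ± 137 in endogenous libraries. Ly6a averaged 137 ± 9.21, 174 ± 23.9 and 180 ± 12.8 in the same order. Summed with Cd34, Flt3 and Ptprc, which do not define the gate, they reached 2064 to 3266 in circulating libraries. That sum was 2706 to 3013 in irradiated and 3845 to 4208 in endogenous libraries.

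Of the members, Uhrf1 was the one whose change passed the test, so the sequence before its annotated starts is shown. RefSeq places 2 Uhrf1 starts on the plus strand of chromosome 17 (GRCm38.p6), and neither window below overlaps an annotated exon: the first lies before the gene and the second in an intron, since it falls inside the gene's span. The search was for the letters TTTCCCGC, TTTCGCGC, TTTGCCGC or TTTGGCGC on either strand, spellings of the site of E2F factors, which are known regulators of replication genes. Capitals mark a match.
Uhrf1 first start, chr17:56303087-56303320, plus strand: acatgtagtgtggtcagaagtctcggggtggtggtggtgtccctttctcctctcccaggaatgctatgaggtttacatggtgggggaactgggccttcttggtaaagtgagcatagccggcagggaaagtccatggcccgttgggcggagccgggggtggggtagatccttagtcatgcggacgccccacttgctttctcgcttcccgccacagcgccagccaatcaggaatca
Uhrf1 second start, chr17:56304063-56304312, plus strand: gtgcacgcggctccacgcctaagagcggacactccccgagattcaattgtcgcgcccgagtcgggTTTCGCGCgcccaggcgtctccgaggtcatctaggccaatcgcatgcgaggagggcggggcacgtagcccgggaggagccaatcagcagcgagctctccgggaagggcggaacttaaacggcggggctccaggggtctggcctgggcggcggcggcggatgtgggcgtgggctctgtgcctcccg
The window of 234 bases before the first start held 10 CpG sites and no match. The window of 250 bases before the second start held 30 CpG sites and 1 match, TTTCGCGC, beginning 185 bases before the start. Among the 12 RefSeq windows of 300 bases that cover the starts of the 7 members, 2 held a match, the other being at Dnmt1 on chromosome 9, where TTTCGCGC lay on the opposite strand 219 bases before a start and TTTGGCGC 33 bases after it. Of all 32851 RefSeq promoter windows of that length, 2.26% held a match. The members' 12 windows held 2 to 57 CpG sites, where the median over all windows was 7.

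By GENCODE annotation of GRCm38, Uhrf1 spans positions 56303321 to 56323486 of chromosome 17, Dnmt1 spans 20907209 to 20959888 of chromosome 9, Dnmt3a spans 3806007 to 3914443 of chromosome 12 and Dnmt3b spans 153649450 to 153687730 of chromosome 2. Tet1 spans 62804570 to 62908996 of chromosome 10, Tet2 spans 133463679 to 133545139 of chromosome 3 and Tet3 spans 83362373 to 83459084 of chromosome 6. The library chemistry does not mark strand. The exons of Dnmt3a share 133 bases with the antisense gene Dnmt3aos and those of Tet2 share 43 bases with the antisense gene Gm42567, which is 0.799% and 0.255% of their exon length, so reads from these stretches cannot be told apart.

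Levels of different genes were compared per kilobase (kb) of annotated exon. The maintenance pair stood far above the rest. Uhrf1 reached 52.7 to 61.6 per kb in circulating, 33.8 to 46.1 in irradiated and 31.0 to 39.2 in endogenous libraries. Dnmt1 reached 26.8 to 38.5 per kb in circulating, 28.6 to 34.3 in irradiated and 29.7 to 35.3 in endogenous libraries. Uhrf1 was above Dnmt1 in 8 of 9 libraries, and the groups of the pair did not overlap in circulating cells but did in irradiated and endogenous cells. Dnmt3b came next at 4.95 to 11.9 per kb over the 9 libraries, followed by Dnmt3a at 3.73 to 5.32, Tet2 at 3.05 to 5.39, Tet1 at 1.40 to 5.89 and Tet3 at 1.39 to 2.49. Dnmt3b was above Dnmt3a per kb in 9 of 9 libraries, Dnmt3a was above Tet2 in 7 of 9, and Tet2 was above Tet1 in 4 of 9. These counts depend on the length used: per kb of the longest transcript in place of all exons they were 8 of 9, 6 of 9 and 8 of 9, and Tet1 was above Tet3 in 6 of 9 libraries, against 9 of 9 per kb of exon. The order of Tet1 and Tet2 is therefore not settled by these values. Neighbours in this order therefore overlapped, apart from the step between Dnmt1 and Dnmt3b: of the 21 pairs of members, 13 had ranges over the 9 libraries that did not overlap.

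**Figure D1:**
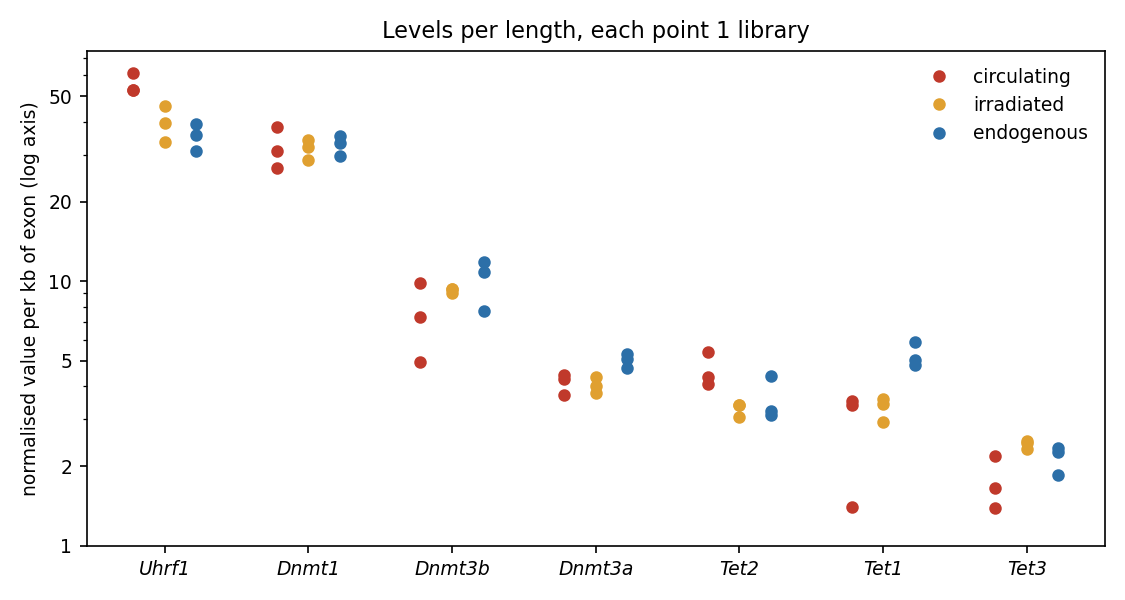
Deposited normalised value per kb of exon on a log axis, for the 7 members in order of their mean level, each point 1 library, with circulating, irradiated and endogenous libraries from left to right. Uhrf1 and Dnmt1 lie between 26.8 and 61.6 per kb, and all other members lie at or below 11.9.

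The first question was how circulating LSK cells differ from endogenous LSK cells in these genes. Uhrf1 rose, Tet1 had a log2 fold change of -1.01 that did not pass the test, and Dnmt1 differed by less than the spread between libraries. Across all 13771 tested genes, 8.63% were called between circulating and endogenous cells at an adjusted p under 0.05 (5.33% higher and 3.3% lower), and of the 7 members 1 was called. Groups did not overlap for 3 members (Uhrf1, Dnmt3a and Tet1), against 27.5% of all tested genes (14.6% higher and 12.9% lower). The median log2 fold change of the members was -0.28, beside -0.041 over all tested genes.

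Uhrf1, which recognises hemimethylated CpG sites, stood at 226, 224 and 262 in circulating, 169.6, 144 and 196 in irradiated and 167, 132 and 152 in endogenous libraries. Every circulating library was above every irradiated and every endogenous library, while irradiated and endogenous libraries overlapped. The means were 237 ± 21.5 in circulating, 169.9 ± 26.4 in irradiated and 150.3 ± 17.6 in endogenous libraries (SD, n = 3 each). Uhrf1 was 1.58-fold higher in circulating than in endogenous cells (limma adjusted p = 0.0254, log2 fold change 0.66, SE 0.15). Between circulating and irradiated cells the log2 fold change was 0.49 (95% interval 0.16 to 0.81, limma adjusted p = 0.297), and between irradiated and endogenous cells it was 0.17 (-0.16 to 0.50, limma adjusted p = 0.657). The log2 fold change against endogenous cells ran from 0.46 to 0.74 over the 19 alternatives. Its sign could not turn without 1 library, since circulating and endogenous libraries did not overlap. Changes of filter, moderation or block, the fit of these 2 groups alone and omission of an irradiated library leave it at 0.66 by construction. The call held in 12 of the 19 alternatives. It ended without circulating replicate 3 (limma adjusted p = 0.0689) and without endogenous replicate 1 (0.0541), 2 (0.0845) or 3 (0.0645). It also ended with sample weights (0.0704), with only these 2 groups in the fit (0.0667) and with scaling to library size alone (0.0681). Under that scaling the median gene stood at -0.22, against -0.041 in the main fit, and Uhrf1 lay 0.68 log2 units above that median.

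Dnmt1, the maintenance methyltransferase gene, stood at 228, 198 and 284 in circulating, 237, 211 and 253 in irradiated and 246, 260.4 and 219 in endogenous libraries. The 3 groups overlapped, and the circulating libraries spanned the range of all others. Circulating against endogenous cells gave a log2 fold change of -0.045 (95% interval -0.37 to 0.28, limma adjusted p = 0.876) and irradiated against endogenous cells one of -0.050 (-0.38 to 0.28, limma adjusted p = 0.912). For circulating against irradiated cells it was 0.0042 (-0.32 to 0.33, limma adjusted p = 0.996). The intervals include differences from -0.38 to 0.33 log2 units, and no direction can be read from these values. Against endogenous cells the sign turned without circulating replicate 2 (0.076) or endogenous replicate 2 (0.0089) for circulating cells, and without irradiated replicate 2 (0.021) or endogenous replicate 2 (0.0047) for irradiated cells. Against irradiated cells it turned without circulating replicate 3 (-0.13) or irradiated replicate 2 (-0.067) and with library size as the sole scaling (-0.064).

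**Figure D2:**
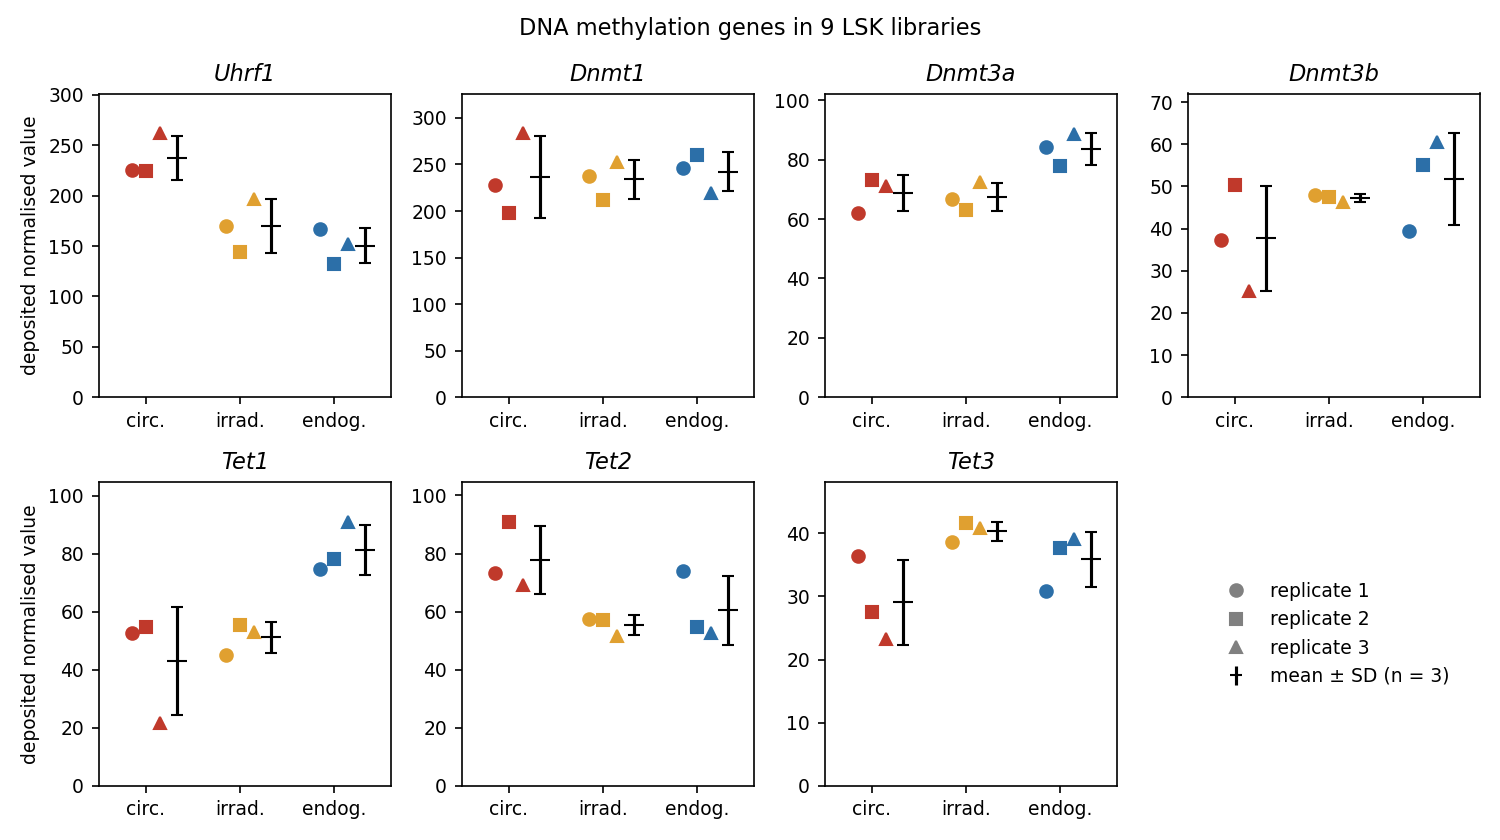
Deposited normalised value of each member in each library, with circulating, irradiated and endogenous libraries from left to right, marker shape for the replicate number and bars for mean ± SD (n = 3). All 3 circulating libraries lie above the other 6 for Uhrf1, and all 3 endogenous libraries lie above the other 6 for Tet1 and Dnmt3a.

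The de novo enzyme genes did not pass the test in any comparison. Dnmt3a stood at 62.0, 73.2 and 71.2 in circulating, 66.9, 63.0 and 72.4 in irradiated and 84.4, 78.0 and 88.6 in endogenous libraries. Each endogenous library was above all circulating and irradiated libraries, and the other 2 groups overlapped. The difference in log2 units was -0.28 for circulating against endogenous cells (95% interval -0.60 to 0.04, limma adjusted p = 0.248) and -0.31 for irradiated against endogenous cells (-0.63 to 0.01, limma adjusted p = 0.362), both set against the same endogenous libraries. Between circulating and irradiated cells it was 0.027 (-0.29 to 0.35, limma adjusted p = 0.964), and its sign turned without circulating replicate 2 (-0.019), without irradiated replicate 2 (-0.020) or with library size as the sole scaling (-0.041).

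Dnmt3b, the other de novo enzyme gene, stood at 37.3, 50.4 and 25.3 in circulating, 47.9, 47.5 and 46.2 in irradiated and 39.5, 55.1 and 60.5 in endogenous libraries. Circulating replicate 3 was the lowest of the 9 libraries, irradiated libraries lay close together, and all groups overlapped. In log2 units the difference was -0.48 for circulating against endogenous cells (95% interval -1.03 to 0.08, limma adjusted p = 0.254), -0.37 for circulating against irradiated cells (-0.93 to 0.18, limma adjusted p = 0.609) and -0.11 for irradiated against endogenous cells (-0.66 to 0.45, limma adjusted p = 0.885). The sign of that last value turned without endogenous replicate 3 (0.016). The SD in log2 units was 0.48 in circulating, 0.026 in irradiated and 0.32 in endogenous libraries.

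Tet1, which encodes a 5-methylcytosine dioxygenase with a CXXC domain that binds CpG sites, stood at 52.7, 54.7 and 21.7 in circulating, 45.2, 55.5 and 53.1 in irradiated and 74.8, 78.0 and 91.1 in endogenous libraries. Every endogenous library was above all 6 others, and circulating replicate 3 was the lowest. The mean was 43.0 ± 18.5 in circulating, 51.3 ± 5.36 in irradiated and 81.3 ± 8.62 in endogenous libraries (SD, n = 3 each). The log2 fold change for circulating against endogenous cells was -1.01 (SE 0.30, 95% interval -1.66 to -0.35), with an unadjusted p of 0.00609 and a limma adjusted p of 0.0601, and it was not called. Without circulating replicate 3 it was -0.585 (limma adjusted p = 0.0835). It was called without circulating replicate 1 (-1.21, limma adjusted p = 0.0291) or 2 (-1.23, 0.0384), with genes of at least 5 in 3 libraries (0.046) and with library size as the sole scaling (0.0436), and over the 19 alternatives its adjusted p ran from 0.0291 to 0.156. With library size as the sole scaling Tet1 was at -1.21, which was -0.985 relative to the median gene. For irradiated against endogenous cells the log2 fold change was -0.66 (95% interval -1.31 to 0.0014, limma adjusted p = 0.337), and it was called when only those 2 groups were fitted (limma adjusted p = 0.0374). Between circulating and irradiated cells it was -0.35 (-1.01 to 0.30, limma adjusted p = 0.680) and turned to 0.071 without circulating replicate 3.

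Tet2, whose product lacks its own CXXC domain, stood at 73.3, 91.0 and 69.0 in circulating, 57.5, 57.2 and 51.5 in irradiated and 74.1, 54.7 and 52.5 in endogenous libraries. All circulating libraries were above all irradiated libraries, and endogenous replicate 1 lay among the circulating libraries. Its log2 fold change was 0.37 for circulating against endogenous cells (95% interval -0.04 to 0.77, limma adjusted p = 0.229) and 0.47 for circulating against irradiated cells (0.07 to 0.88, limma adjusted p = 0.376). For irradiated against endogenous cells it was -0.11 (-0.51 to 0.29, limma adjusted p = 0.840) and turned to 0.046 without endogenous replicate 1.

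Tet3, the third dioxygenase gene, stood at 36.4, 27.5 and 23.2 in circulating, 38.7, 41.6 and 40.8 in irradiated and 30.9, 37.6 and 39.1 in endogenous libraries. The circulating libraries were below all irradiated libraries and overlapped with endogenous ones. Its log2 fold change was -0.48 for circulating against irradiated cells (95% interval -0.95 to -0.018, limma adjusted p = 0.423), -0.31 for circulating against endogenous cells (-0.78 to 0.15, limma adjusted p = 0.374) and 0.17 for irradiated against endogenous cells (-0.29 to 0.64, limma adjusted p = 0.771).

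**Figure D3:**
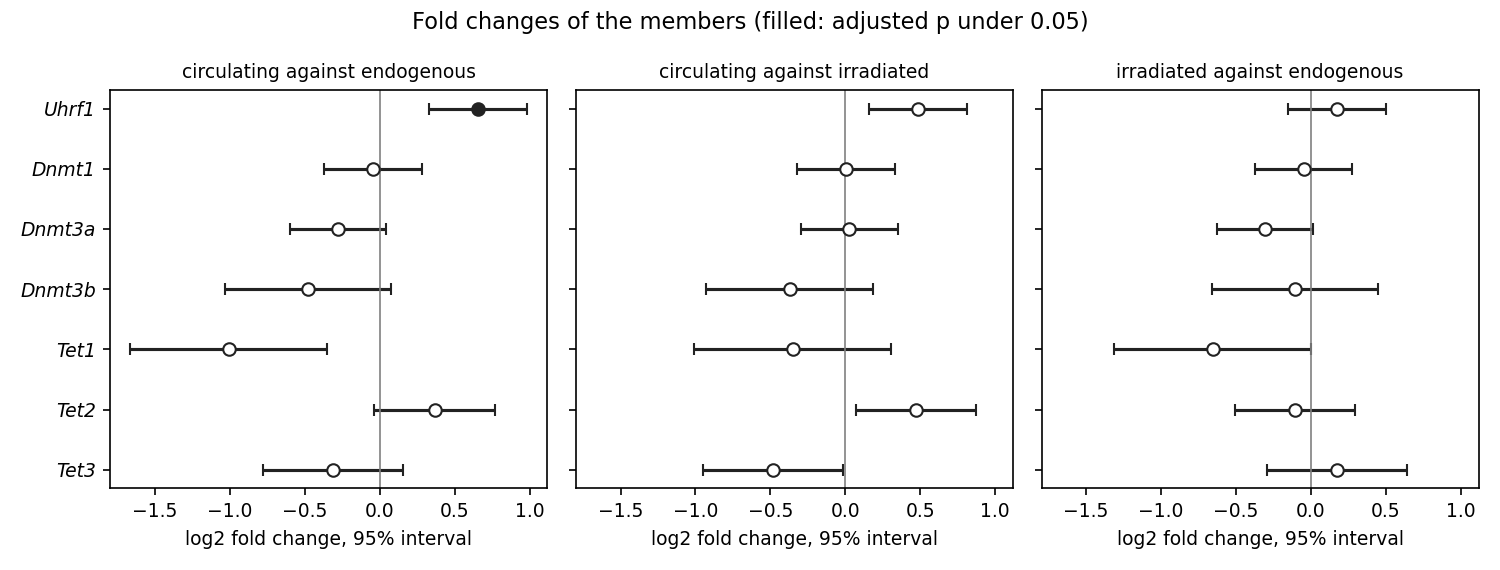
Log2 fold change on the log2(value + 1) scale with its 95% interval from the limma fit (n = 3 libraries a group), for each member in each comparison, filled where the adjusted p is under 0.05. The Uhrf1 point at 0.66 in circulating against endogenous cells is the single filled one, and Tet1 in that panel lies at -1.01.

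Circulating and irradiated LSK cells, both labelled C57BL/6, were compared next. Of the 7 members, 0 were called by limma, and 0 by limma with voom weights; 3 had an unadjusted p under 0.05 (Uhrf1 0.00722, Tet2 0.0247 and Tet3 0.0431). The same 3 had groups that did not overlap, against 16.7% of all tested genes (7.46% higher and 9.26% lower). Of all tested genes 0.029% were called in that comparison (0.0218% higher and 0.00726% lower), and 1573 of 13771 had an unadjusted p under 0.05. In irradiated against endogenous cells 0 members were called by limma, 0 with voom weights and 0 at an unadjusted p under 0.05, while 0.603% of tested genes were called (0.472% higher and 0.131% lower) and 2053 had an unadjusted p under 0.05. Dnmt3a and Tet1 had groups that did not overlap there, against 27.7% of all tested genes (15.2% higher and 12.5% lower).

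The makeup of the family within a library was described by ratios of values per kb, which do not depend on how libraries are scaled to each other. Uhrf1 stood at 1.71, 1.97 and 1.60 times Dnmt1 in circulating, 1.24, 1.18 and 1.34 times in irradiated and 1.17, 0.879 and 1.20 times in endogenous libraries. All circulating libraries were above the others, and irradiated and endogenous libraries overlapped. In log2 units the ratio was 0.81 ± 0.15 in circulating, 0.32 ± 0.096 in irradiated and 0.10 ± 0.25 in endogenous libraries (SD, n = 3 each).

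Among the Tet genes, Tet2 stood at 1.27, 1.52 and 2.91 times Tet1 in circulating, 1.16, 0.945 and 0.888 times in irradiated and 0.907, 0.642 and 0.528 times in endogenous libraries. Which of the pair was higher depended on the length used. Per kb of exon Tet2 was above Tet1 in 3 circulating, 1 irradiated and 0 endogenous libraries, and per kb of the longest transcript in 3 circulating, 3 irradiated and 2 endogenous libraries, with ratios of 2.18 to 4.98 in circulating, 1.52 to 1.99 in irradiated and 0.902 to 1.55 in endogenous libraries. The circulating libraries did not overlap with either other group, and the highest of their ratios came from replicate 3. The choice of length cannot change this, since it multiplies the ratio of every library by the same factor. Tet2 over Tet3 was 1.99 to 3.27 in circulating, 1.25 to 1.47 in irradiated and 1.33 to 2.37 in endogenous libraries, and the circulating libraries overlapped with endogenous ones only. Dnmt3a over Dnmt3b was 0.446 to 0.864 in circulating, 0.407 to 0.480 in irradiated and 0.434 to 0.656 in endogenous libraries, and the groups overlapped. Over all 21 pairs of members, the ratio did not overlap in 11 pairs between circulating and endogenous libraries and in 10 between circulating and irradiated libraries. Between irradiated and endogenous libraries it did not overlap in 9. The pairs share genes and were not tested. No share over pairs of all genes was computed, so these counts cannot be read as a result about the members.

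**Figure D4:**
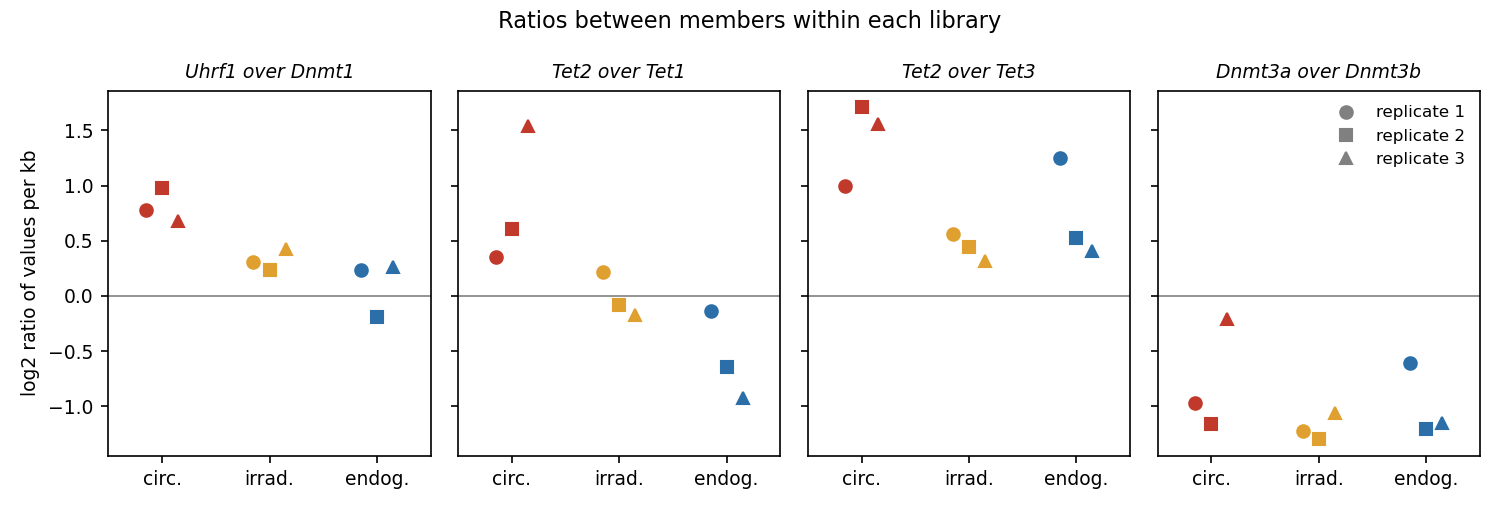
Log2 ratio of values per kb between 2 members in each library, with circulating, irradiated and endogenous libraries from left to right and marker shape for the replicate number; 0 means equal levels per kb of exon, and another length moves all points of a panel by the same amount. Circulating libraries lie between 0.68 and 0.98 for Uhrf1 over Dnmt1 and between 0.35 and 1.54 for Tet2 over Tet1, above both other groups.

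Genes that work beside the writers and erasers were taken from lists. For this and the following lists, the share of all tested genes in circulating against endogenous cells was 5.33% called higher and 3.3% called lower. In irradiated against endogenous cells it was 0.472% and 0.131%. Between circulating and irradiated cells 0.029% were called either way. List counts were not tested against these shares. In circulating against endogenous cells, 3 of 9 partners of maintenance methylation rose, 0 fell and 6 did not pass (median log2 fold change 0.40). Pclaf, a PCNA-binding protein that binds Dnmt1 when ubiquitinated, was 282 ± 10.5 in circulating against 153 ± 27.3 in endogenous cells (log2 fold change 0.89, limma adjusted p = 0.00789). Lig1, the replicative DNA ligase, was 213 ± 27.5 against 140.1 ± 17.3, and Pcna, the replication clamp, was 476 ± 46.5 against 337 ± 36.7. The count of 3 was 1 without circulating replicate 2, irradiated replicate 1, endogenous replicate 1 or endogenous replicate 3. In irradiated against endogenous cells 1 of the 9 rose, Pclaf at 253 ± 8.68 in irradiated against 153 ± 27.3 in endogenous cells (limma adjusted p = 0.0425), and 0 without any 1 of the irradiated or endogenous libraries.

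Among 11 measured genes of base excision and the Gadd45 family, 2 rose in circulating against endogenous cells, 0 fell and 9 did not pass (median 0.31). Tdg, the glycosylase that excises the Tet products 5-formylcytosine and 5-carboxylcytosine, was 261 ± 22.9 in circulating against 156 ± 24.1 in endogenous cells (log2 fold change 0.75, limma adjusted p = 0.0188). Gadd45b, a stress-induced gene, was 21.6 ± 4.78 against 8.20 ± 4.09. The count was 0 without endogenous replicate 1 or 2 and 1 without circulating replicate 3 or any 1 irradiated library. In irradiated against endogenous cells 0 of the 11 were called by limma, 0 with voom weights and 2 had an unadjusted p under 0.05. Apex1, the abasic site endonuclease gene, was 266 ± 13.4 in irradiated against 214 ± 17.4 in endogenous cells, and Tdg was 202 ± 27.7 against 156 ± 24.1.

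Of 4 measured partners of the Tet enzymes, 1 fell in circulating against endogenous cells and 3 did not pass (median -0.41). This was Ogt, which encodes the O-GlcNAc transferase that binds Tet2 and Tet3, at 452 ± 78.9 in circulating against 665 ± 118 in endogenous cells (log2 fold change -0.56, limma adjusted p = 0.0481). The call ended with voom weights and without any 1 library apart from circulating replicate 1, whose omission gave 2 calls. Between irradiated and endogenous cells limma called 0 of the 4, voom weights gave 0 and 1 had an unadjusted p under 0.05. There Ogt stood at 458 ± 31.4 in irradiated against 665 ± 118 in endogenous cells, and Cxxc5, which encodes a CXXC-domain protein, at 44.5 ± 7.12 against 60.7 ± 9.64.

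Among enzymes that supply the methyl donor S-adenosylmethionine or clear its product, 2 of 11 rose in circulating against endogenous cells and 9 did not pass (median 0.27). Ahcy, which hydrolyses S-adenosylhomocysteine, an inhibitor of methyltransferases, was 145 ± 9.84 in circulating against 85.0 ± 9.64 in endogenous cells (log2 fold change 0.77, limma adjusted p = 0.0204), and the mitochondrial folate enzyme gene Mthfd2 was 44.05 ± 7.95 against 22.7 ± 7.11. The count was 1 with voom weights, 0 without endogenous replicate 1 or 2 and 1 without circulating replicate 2 or 3, endogenous replicate 3 or any 1 irradiated library. Between irradiated and endogenous cells limma called 0 of the 11, voom weights gave 0 and 3 had an unadjusted p under 0.05. Ahcy stood at 136 ± 24.4 in irradiated against 85.0 ± 9.64 in endogenous cells, and Shmt2, the mitochondrial serine hydroxymethyltransferase gene, at 229 ± 11.8 against 178 ± 23.2.

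Of 12 genes around alpha-ketoglutarate, the Tet co-substrate, 2 rose in circulating against endogenous cells and 10 did not pass (median 0.25). Idh1, the cytosolic isocitrate dehydrogenase gene, was 247 ± 103 in circulating against 99.3 ± 19.2 in endogenous cells (log2 fold change 1.24, limma adjusted p = 0.0237), with 150.3, 235 and 356 in the circulating libraries. Fh1, the fumarase gene, was 189.9 ± 37.9 against 118 ± 16.3. The count was 1 with voom weights, 0 without circulating replicate 3 or any 1 endogenous library, and 1 without circulating replicate 2 or any 1 irradiated library. Between irradiated and endogenous cells limma called 0 of the 12, voom weights gave 0 and 5 had an unadjusted p under 0.05. Sdhb, a succinate dehydrogenase subunit gene, stood at 313 ± 22.4 in irradiated against 229 ± 10.04 in endogenous cells, and Idh2, the mitochondrial isocitrate dehydrogenase gene, at 653 ± 44.9 against 520.3 ± 17.3.

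The lists of de novo partners (9 genes, median -0.09) and methyl-CpG readers (11 genes, median -0.04) had 0 members called by limma in circulating against endogenous cells, 0 with voom weights and 0 at an unadjusted p under 0.05, and the same held in irradiated against endogenous cells. Nsd1, a histone H3 lysine 36 methyltransferase gene, stood at 97.4 ± 20.7 in circulating against 124 ± 9.46 in endogenous cells, Uhrf2, the Uhrf1 paralogue, at 72.8 ± 3.74 against 87.4 ± 8.53, and the reader gene Mbd2 at 17.8 ± 2.04 against 13.1 ± 1.91. Zfp57, a zinc finger gene of imprint maintenance, stood at 0.392 ± 0.337 against 1.14 ± 0.785, near a count of 0. In irradiated against endogenous cells Nsd2, another histone H3 lysine 36 methyltransferase gene, stood at 63.7 ± 12.9 in irradiated against 49.9 ± 20.7 in endogenous cells and Zfp57 at 1.94 ± 0.183 against 1.14 ± 0.785. The reader genes Mbd6 and Zbtb4 stood there at 9.64 ± 0.717 against 6.33 ± 0.332 and at 4.90 ± 4.13 against 8.23 ± 3.75.

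In circulating against irradiated cells limma called 0 genes in each of these 7 lists and voom weights gave 0. An unadjusted p under 0.05 was reached by 1 gene each of the de novo partners, readers, base excision, methyl donor and alpha-ketoglutarate lists and by 0 of the maintenance and Tet partners. In the maintenance list Cdca7, which recruits the remodeller Hells, stood at 515 ± 6.57 in circulating against 595 ± 32.9 in irradiated cells, and the deacetylase gene Hdac2 at 129 ± 38.7 against 189.6 ± 54.0. In the de novo and reader lists Zfp57 stood at 0.392 ± 0.337 in circulating against 1.94 ± 0.183 in irradiated cells, Nsd1 at 97.4 ± 20.7 against 121 ± 14.6, Uhrf2 at 72.8 ± 3.74 against 97.9 ± 12.7 and Mbd3 at 45.0 ± 16.6 against 60.2 ± 14.1. Tdg stood at 261 ± 22.9 in circulating against 202 ± 27.7 in irradiated cells, and Gadd45b at 21.6 ± 4.78 against 13.1 ± 1.01. Cxxc5 stood at 36.1 ± 16.1 in circulating against 44.5 ± 7.12 in irradiated cells and Dcaf1, a ubiquitin ligase adaptor gene, at 59.4 ± 14.5 against 67.1 ± 14.3. In the metabolic lists the folate enzyme genes Mthfd2 and Mthfd1 stood at 44.05 ± 7.95 in circulating against 28.8 ± 5.30 in irradiated cells and at 250.1 ± 57.5 against 199.7 ± 56.3, Idh1 at 247 ± 103 against 135 ± 25.5 and the succinate dehydrogenase gene Sdha at 987 ± 123 against 825 ± 55.4.

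**Figure D5:**
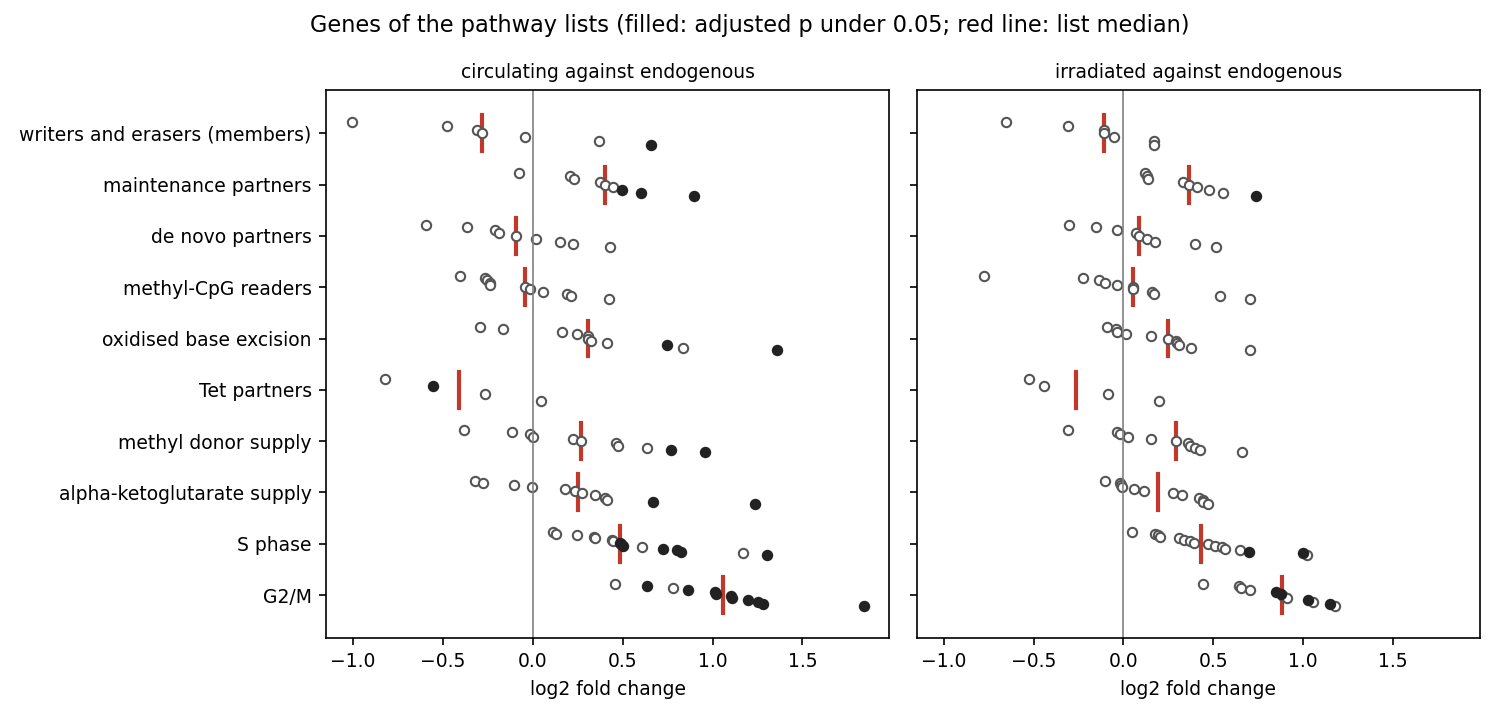
Log2 fold change of each tested gene of the pathway lists, with filled points for an adjusted p under 0.05 and a red line at the median of the list, for circulating against endogenous cells (left) and irradiated against endogenous cells (right), which share the endogenous libraries. Uhrf1 is the filled point of the members at 0.66 in the left panel, and all S phase and G2/M genes lie above 0 in both panels.

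Several lists of markers of cycling cells and of cell types also differed between groups, and their part in these results was not tested. Of all tested genes 5.33% were called higher in circulating and 0.472% in irradiated against endogenous cells. Of 16 S phase genes, from which Uhrf1 was left out, 7 rose in circulating against endogenous cells, 0 fell and 9 did not pass (median log2 fold change 0.49), and their summed level was 6081 to 6911 in circulating, 5819 to 6472 in irradiated and 4549 to 4830 in endogenous libraries. Rrm2, a ribonucleotide reductase subunit gene, was 470.1 ± 103 in circulating against 186 ± 1.45 in endogenous cells, and Rrm1, the other subunit, 878 ± 122 against 494 ± 57.5. Cdc6, the helicase loader gene, was 150.2 ± 20.7 against 85.7 ± 9.41, and the helicase subunit gene Mcm5 539 ± 71.2 against 327 ± 44.5. The count of 7 was 4 without circulating replicate 3 or irradiated replicate 1, 2 without endogenous replicate 1, and 3 without endogenous replicate 2 or 3. In irradiated against endogenous cells 2 of the 16 rose, Rrm2 at 375 ± 44.03 in irradiated against 186 ± 1.45 in endogenous cells and Rrm1 at 799.8 ± 65.6 against 494 ± 57.5, with 4 without circulating replicate 3, 1 without irradiated replicate 2 and 0 without irradiated replicate 1 or 3 or any 1 endogenous library. In circulating against irradiated cells limma called 0 of the 16, voom weights gave 0 and 2 had an unadjusted p under 0.05. Slbp, the histone mRNA binding protein gene, stood at 514 ± 37.0 in circulating against 417 ± 48.3 in irradiated cells and Cdc6 at 150.2 ± 20.7 against 119 ± 5.25.

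Relative to this summed S phase level, Uhrf1 was 3.71%, 3.35% and 3.79% in circulating, 2.80%, 2.47% and 3.04% in irradiated and 3.59%, 2.73% and 3.33% in endogenous libraries. Circulating and endogenous libraries overlapped on this scale, and irradiated libraries lay below all circulating ones. Dnmt1 was 3.76%, 2.95% and 4.10% of the summed S phase level in circulating, 3.92%, 3.63% and 3.91% in irradiated and 5.29%, 5.39% and 4.82% in endogenous libraries. Every endogenous library was above all 6 others for Dnmt1 on this scale. The Dnmt1 values themselves overlapped between groups, whereas the S phase sum that divides them was lower in every endogenous library than in all others.

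In the G2/M list of 12 genes, 10 rose in circulating against endogenous cells and 2 did not pass (median 1.06), with a summed level of 2738 to 4308 in circulating, 2803 to 3378 in irradiated and 1750.3 to 1929 in endogenous libraries. The mitotic kinase gene Plk1 was 145 ± 52.9 in circulating against 38.1 ± 3.48 in endogenous cells. The kinase genes Aurkb and Aurka were 283 ± 68.3 against 114 ± 10.9 and 161 ± 74.2 against 65.5 ± 7.30, and Birc5, the survivin gene, was 191 ± 27.7 against 79.3 ± 7.80. The count was 6 without circulating replicate 3 or any 1 endogenous library. In irradiated against endogenous cells 4 of the 12 rose, namely Birc5 (177 ± 10.4 against 79.3 ± 7.80), Cdc20 (250.4 ± 36.8 against 122 ± 7.32), Ccnb2 (258 ± 25.4 against 139.7 ± 5.25) and Cdk1 (232 ± 34.6 against 128 ± 11.9), with 8 without circulating replicate 2, 9 without circulating replicate 3, 1 without endogenous replicate 3 and 0 without irradiated replicate 1 or 3 or endogenous replicate 1 or 2. In circulating against irradiated cells limma called 0 of the 12, voom weights gave 0 and 2 had an unadjusted p under 0.05, with Plk1 at 145 ± 52.9 against 88.7 ± 20.8 and Aurkb at 283 ± 68.3 against 211 ± 20.2.

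Of 9 tested myeloid progenitor genes 6 rose and of 11 stem cell genes 6 fell in circulating against endogenous cells. Of all tested genes 5.33% were called higher and 3.3% lower there. Without 1 library the counts were 6 to 7 and 4 to 8. In irradiated against endogenous cells 5 of the 9 rose and 1 of the 11 fell, or 0 to 6 and 0 to 3 without 1 library. There 0.472% of all tested genes were called higher and 0.131% lower. Between circulating and irradiated cells limma called 0 in either list, and 5 and 6 had an unadjusted p under 0.05. The summed myeloid progenitor level was 13013 to 39405 in circulating, 7787 to 16329 in irradiated and 2215 to 3149 in endogenous libraries. Mpo was the largest part of it in every library, averaging 1905 for endogenous against 18270 for circulating and 8593 for irradiated libraries. All 9 tested genes had a positive log2 fold change in both groups against endogenous cells, but Gfi1 averaged 10.2 for endogenous against 17.5 for circulating and 9.59 for irradiated libraries. The summed stem cell level was 421 to 574 in circulating, 722 to 741 in irradiated and 1039 to 1291 in endogenous libraries. The B lineage list summed to 104 to 285 in circulating, 83.5 to 107 in irradiated and 74.6 to 101 in endogenous libraries, with Pax5, Vpreb1 and Igll1 at a count of 0 in at least 1 library. The T and NK list summed to 614 to 958 in circulating, 606 to 703 in irradiated and 332 to 387 in endogenous libraries, with Cd3e at a count of 0 in at least 1 library. Nkg7 alone made up most of this sum in every library, averaging 241 for endogenous against 690 for circulating and 580 for irradiated libraries. Lck went the other way, averaging 107 for endogenous against 81.9 for circulating and 69.0 for irradiated libraries. Cd3d, Cd3e, Cd3g and Il2rb had group means of at most 17.4. The erythroid list summed to 133 to 860.1 in circulating, 140.4 to 486 in irradiated and 79.7 to 119.7 in endogenous libraries. Car1 was the largest part of it in every library, averaging 59.1 for endogenous against 345 for circulating and 192 for irradiated libraries. Against endogenous cells, 5 of the 6 erythroid genes had a positive log2 fold change in both groups. The other, Hba-a1, averaged 18.1 for endogenous against 12.4 for circulating and 3.69 for irradiated libraries. The neutrophil list summed to 1136 to 1808 in circulating, 776 to 1939 in irradiated and 1044 to 2183 in endogenous libraries. Its genes were split in circulating against endogenous cells: 3 had a positive and 3 a negative log2 fold change, and limma called 1 lower. Mmp8 averaged 70.4 for endogenous against 11.7 for circulating and 34.3 for irradiated libraries. S100a8 went the other way, averaging 387 for endogenous against 619 for circulating and 479 for irradiated libraries. In bulk libraries such as these, fewer cells of a type and less RNA per cell cannot be told apart.

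For each member the genes with the most similar pattern over the 9 libraries were found among 7929 genes by Pearson correlation of log2(value + 1). The points share libraries and groups, so these values describe likeness and were not tested. Uhrf1 was followed most closely by Fam222b (r = 0.986), Nrd1 (0.976) and the Hsp90 co-chaperone gene Ahsa1 (0.968). Ahsa1 stood at 217, 211 and 279.9 in circulating, 169, 139.6 and 198 in irradiated and 164, 147 and 163.5 in endogenous libraries. Tet1 was followed by the ceramide synthase gene Cers4 (0.978), the transcription factor gene Bcl11a (0.968) and Klhl28 (0.956). Cers4 was, as Tet1, lowest in circulating replicate 3 at 24.1 and highest in the endogenous libraries at 93.6 to 107. Dnmt3b was followed by the kinase gene Pim2 (0.957), the autophagy gene Atg16l1 (0.949) and Csnk1g1 (0.938), all lowest in circulating replicate 3. Tet2 was followed by the kinase gene Clk3 (0.952), the choline kinase gene Chkb (0.950) and the MHC class II chaperone gene H2-DMb2 (0.910). Dnmt1 was followed by C2cd5 (0.931), Mterf3 (0.913) and the splicing gene Cdc5l (0.912), Dnmt3a by Zfp445 (0.925), Wasl (0.904) and Tcf25 (0.882), and Tet3 by Selenow (0.917), the calcium pump gene Atp2b4 (0.914) and Ralgapa2 (0.912).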

How the data were processed

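RNA of sorted LSK cells was isolated with a low-input kit, amplified with SMART-Seq v4 and made into Nextera XT libraries, per the labels' protocols. Per the submitters' processing notes mm10, CASAVA, RSEM 1.3.1 and limma were used, with no role or order given. The deposited table holds a normalised signal: in each column 100% of the values are an estimated count with 2 decimals plus 0.5, multiplied by a constant of the column, and a count of 0 stands at 0.0182 to 0.0376. The sources used here name no scaling method and no filter on genes for it. Groups came from the labels.

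All 9 libraries entered 1 fit of limma 3.58.1 (R 4.3.3) with intensity trend and robust moderation on log2(value + 1), which understates the change of low genes, for the 13771 genes with a value of at least 1 in at least 3 libraries. Benjamini-Hochberg adjustment of p ran over all of them, and genes were called under 0.05. The labels do not tie a group's libraries to separate animals, and p-values then describe only how these samples spread, possibly for technical reasons. Symbols matched 14405 of 14461 genes. Exon lengths came from GENCODE M21 and promoter sequences from RefSeq (GRCm38.p6). Named genes were all members, up to 4 called genes of each list by size of change or else 2 with the smallest p, and 3 genes most similar to each member with a mean log2 value of at least 4. The members and lists were chosen with earlier results of these data known. Alternatives are given below; depth limits cover counting error only, since reads amplified by PCR and lacking molecular identifiers are not independent.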

Additional observations from a re-analysis of the deposited data

How the results depend on the processing

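For the 7 members, 19 alternatives were run in each comparison. The number of members called between circulating and endogenous cells, 1, became 2 with genes of at least 5 in 3 libraries, 0 with sample weights, 0 with only these 2 groups in the fit, and 0 to 2 when 1 library was left out. For irradiated against endogenous cells it was 0 and became 1 with only those groups in the fit. The number of all genes called between circulating and endogenous cells, 1189, became 494 with sample weights, 239 with the 2 groups alone and 262 to 2230 without 1 library. Scaling by library size alone gave 337 higher and 816 lower calls in place of 734 and 455. The count of 4 between circulating and irradiated cells became 15 with a pseudocount of 5, 13 with the stricter filter, 11 with library size alone, 8 with voom on the recovered estimated counts and 3 to 134 without 1 library. The count of 83 between irradiated and endogenous cells became 138 with the stricter filter, 897 with sample weights, 757 with the 2 groups alone and 6 to 265 without 1 library. The cause was not tested.

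In a fit that took replicate number as a block, counts of all genes called were 1147, 9 and 105 for circulating against endogenous, circulating against irradiated and irradiated against endogenous cells, and the members called did not change. This block also tied each endogenous library to the same-numbered libraries of the other groups, a tie that the titles do not give. The fit therefore cannot check a pairing of circulating with irradiated libraries by itself. Deviations of same-numbered circulating and irradiated libraries correlated at 0.0501, 0.0311 and 0.182 for replicates 1, 2 and 3. Replicates 2 and 3 of the circulating group correlated best with their own number among irradiated libraries and replicate 1 with irradiated replicate 2 (0.106). The titles also give same-numbered circulating and irradiated libraries a common code, but do not say what it marks, so whether they are paired is not known and the fit without the block was kept.

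Signs turned for log2 fold changes that were not called, most of them near 0; Tet1 in circulating against irradiated cells, at -0.35, was the exception. With library size alone, circulating against irradiated cells gave -0.064 for Dnmt1 and -0.041 for Dnmt3a. Without 1 library, Dnmt1 ran from -0.18 to 0.076 for circulating against endogenous, from -0.13 to 0.13 for circulating against irradiated and from -0.12 to 0.021 for irradiated against endogenous cells. Dnmt3a (-0.020 to 0.10) and Tet1 (-0.58 to 0.071) turned for circulating against irradiated cells, and Dnmt3b (-0.29 to 0.016) and Tet2 (-0.20 to 0.046) for irradiated against endogenous cells. The order of levels had 13 of 21 pairs without overlap, 14 by longest transcript and 13 by library size, but the order itself moved: by longest transcript Tet2 was above Tet1 in 8 of 9 libraries in place of 4, and by library size the mean ranks of Tet1 and Tet2, 6 and 5, became 5 and 6. The list counts without 1 library were added after seeing the data.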
